A study of Mus musculus with 2 samples.

Results

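The genes described here were 43 mouse genes of DNA replication and the S phase of the cell cycle, taken as a fixed list out of 32285 gene rows in a single-cell RNA count matrix of thymocytes sorted as invariant natural killer T (iNKT) cells. All 43 were found in the matrix by symbol. No threshold on measured values chose them, but the list was drawn up with earlier results of these data known. It held 10 genes of origin licensing, 4 of helicase activation, 4 of DNA polymerases, 8 of the sliding clamp and lagging strand, 5 of nucleotide supply, 4 of chromatin replication, 5 regulators of S phase entry and 3 of checkpoint and repair. The study compared mice lacking Kidins220 in T cells (T-KO: Kidins220-floxed alleles with pLckCre, a Cre recombinase driven by the proximal Lck promoter, which is active in thymocytes from an early double-negative stage) with control mice (Ctrl), on a C57BL/6 background. Ages were given only as a range over all the experiments of the study, mostly young adults. For each genotype, cells of 4 thymi were pooled, and staining and sorting were carried out in parallel for 2 replicas each of stage 0 iNKT cells (TCRβ+ CD1d tetramer+ CD24+ NK1.1-) and stage 3 iNKT cells (TCRβ+ CD1d tetramer+ NK1.1+ CD24- CD44+). Whether both replicas came from the same pool of thymi was not clear from the sources used here. The 8 sorted populations were marked with antibodies that carry an oligonucleotide barcode (hashtags), mixed, and run as 1 droplet library with 5′ chemistry.

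The hashtags of the deposited matrix stood in rows named HASH_11 to HASH_18, while the sample labels number the antibodies 1 to 8. Nothing used here pairs the 2 numberings, so no row was assigned a stage or a genotype, and T-KO and Ctrl were not compared. The matrix was treated as 1 pooled sample. The replicas could not be matched to rows, so no spread between replicates is given, no test was made, and the intervals given below are 95% intervals of the counts (exact Poisson for levels, Clopper-Pearson for shares of cells), which cover counting error only. Rows 11, 13, 15 and 17 are called odd rows and the others even rows.

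DNA replication begins with licensing. In G1, the origin recognition complex, Cdc6 and Cdt1 load the ring-shaped Mcm2 to Mcm7 helicase onto DNA, and in S phase Cdc45 and the GINS complex switch it on. Polymerases then copy both strands on the Pcna clamp, which replication factor C opens and closes, while ribonucleotide reductase and thymidylate synthase supply deoxynucleotides. Many of these genes are transcribed at the G1 to S transition by E2F factors, which the retinoblastoma protein holds back in resting cells. In the thymus, thymocytes divide most after β-selection, on the way to the CD4+ CD8+ double-positive (DP) stage, early iNKT precursors also divide, and mature NK1.1+ iNKT cells are mostly resting.

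Because E2F factors bind a short sequence in promoters, the promoters of the members were read from RefSeq (GRCm38.p6, the assembly known as mm10), which held windows of 250 bases before to 50 bases after a start for 36 of the 43. Mcm4, Gins1, Pole, Ccne2, Rmi2, Gins2 and Dscc1 had no entry. The words TTTCCCGC, TTTCGCGC, TTTGCCGC and TTTGGCGC were searched on both strands. Of the 36 members, 16 (44.4%) held at least 1 word, against 704 of 27025 genes (2.605%) with a RefSeq window. At least 2 words, which may overlap, stood in 5 members (13.9%; Mcm3, Mcm5, Mcm6, Mcm7 and Rfc3) and in 0.107% of all genes. In the list of 49 other replication genes, 12 of 37 with a window (32.4%) held a word, and in the list of 18 G2/M genes, 1 of 16 (6.25%). The 5 nucleotide supply genes held none. A word is a description of the letters, and its absence says only that these letters are not in the window. The stretches of 170 bases just before the start of 4 members with a word and of Rrm2, which has none, show the placement and are printed 5′ to 3′ on the strand of the gene, with the words in capitals.
Mcm5: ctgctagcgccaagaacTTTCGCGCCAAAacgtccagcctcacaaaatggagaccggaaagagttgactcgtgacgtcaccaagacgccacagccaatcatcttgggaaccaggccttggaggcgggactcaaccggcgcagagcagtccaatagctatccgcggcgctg
Mcm6: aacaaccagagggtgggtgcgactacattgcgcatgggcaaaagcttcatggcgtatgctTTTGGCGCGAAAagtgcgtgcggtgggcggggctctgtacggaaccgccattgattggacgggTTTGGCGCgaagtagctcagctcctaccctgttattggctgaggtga
Cdc6: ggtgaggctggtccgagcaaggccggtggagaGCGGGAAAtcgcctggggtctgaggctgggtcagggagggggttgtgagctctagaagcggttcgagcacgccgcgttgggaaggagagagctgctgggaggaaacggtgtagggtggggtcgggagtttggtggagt
Hells: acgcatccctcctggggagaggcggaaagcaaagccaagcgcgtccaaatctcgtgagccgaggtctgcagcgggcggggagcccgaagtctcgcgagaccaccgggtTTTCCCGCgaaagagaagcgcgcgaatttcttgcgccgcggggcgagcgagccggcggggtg
Rrm2: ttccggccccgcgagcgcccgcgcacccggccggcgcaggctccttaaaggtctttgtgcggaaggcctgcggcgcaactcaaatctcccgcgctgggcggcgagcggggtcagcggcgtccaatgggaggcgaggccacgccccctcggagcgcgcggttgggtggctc
The window of Mcm5 (chr8:75109339-75109508, plus strand) held a run of 12 capitals that is 2 overlapping words, TTTCGCGC and the reverse complement of TTTGGCGC, whose first bases lay 153 and 149 bases before the start. Mcm6 (chr1:128359706-128359875, minus strand) held 3, the first a similar overlapping pair at 110 and 106 bases and the third at 47. Cdc6 (chr11:98907981-98908150, plus strand) and Hells (chr19:38930820-38930989, plus strand) held 1 each, at 138 and 62 bases, and Rrm2 lies at chr12:24708084-24708253, plus strand.

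Of 16179 barcodes, 10007 were kept: at least 1000 genes, at most 5% of UMIs (unique molecular identifiers, each counting 1 captured mRNA) from mitochondrial genes, and a clear hashtag, meaning that 1 of the 8 rows took 80% or more of a total of 10 or more hashtag UMIs. The rows held 577 to 2162 kept cells, 4249 in the odd and 5758 in the even rows, with a median of 7135 and 3400.5 UMIs per cell. All barcodes were distinct. Even-row cells had the markers of stage 3 iNKT1 cells, with Klrb1c, which encodes NK1.1, at 408 CPM (UMIs of the gene per 1000000 UMIs) against 3.36 to 6.91 CPM in the 5 cell groups of the odd rows. Their 7 iNKT1 markers summed to 4618 CPM, against 55.4 to 522 CPM in those groups. The odd rows were mixed, although the samples are labelled as iNKT cells, and were split by the first match of at least 2 Cd79a UMIs (810 cells, B cell-like by all 6 markers), 5 Cst3 UMIs (972, dendritic or myeloid cell-like), 1 Rag1 UMI (418, DP thymocyte-like), 2 Ikzf2 UMIs (1106 cells, called Ikzf2+; Ikzf2 encodes Helios, found in thymocytes after strong T cell receptor signals) and the rest (943, given no name). The Rag1 limit does not split off double-negative thymocytes, which the study also found among its sorted cells. Cd79b, a B cell gene, was at 792 CPM in the Cd79a+ cells and at 11.8 to 23.6 CPM in the other odd-row groups. Whether this floor came from RNA free in the suspension or from B cells below the Cd79a limit was not tested.

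Summed, the members were higher in every odd row than in every even row. The sum was 3265 CPM in row 11 (95% interval 3229 to 3301), 4834 CPM in row 13, 5170 CPM in row 15 and 5457 CPM in row 17. In the even rows it was 1311 CPM in row 12 (1282 to 1340), 1318 CPM in row 14 (1292 to 1345), 1581 CPM in row 16 (1530 to 1633) and 1534 CPM in row 18 (1499 to 1569). In order of level (rows 12, 14, 18 and 16), rows 14 and 18 were the neighbours whose intervals did not overlap. Row 11 was lowest among the odd rows and also held the most Cst3+ cells (390) and the fewest Ikzf2+ cells (161). Within cell groups, given below, it was also lowest for the Rag1+, rest, Cst3+ and Cd79a+ cells, but not for the Ikzf2+ cells. Taken singly, 42 of the 43 members had their lowest odd row above their highest even row, against 35.6% of the 8754 genes with at least 10 CPM over all kept cells. Some members passed this filter only through the odd rows, such as Ccne2, at 10.3 CPM over all kept cells and 2.00 CPM in the even rows. The same filter applies to the ratios below. In bulk sums like these, fewer cells with the mRNA and less mRNA per cell cannot be told apart. Cell makeup, depth, sorted stage and genotype all vary between the rows, and their part in this result was not tested.

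**Figure D1:**
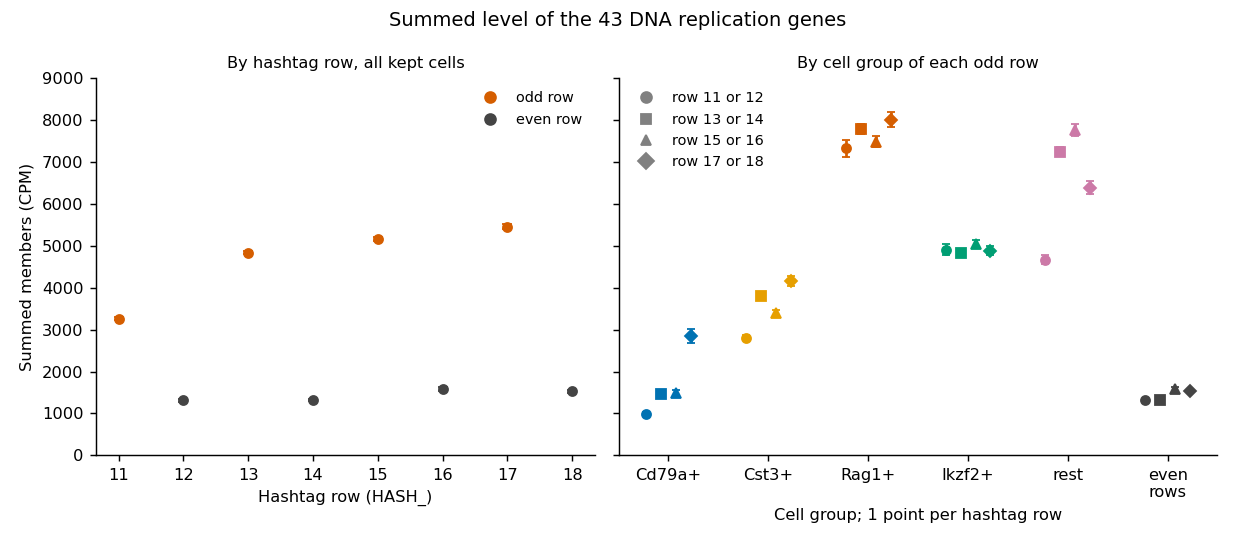
Summed level of the 43 members in CPM, with 95% Poisson intervals. On the left is 1 point per hashtag row; on the right each odd row is split into cell groups, beside the 4 even rows. The even rows lie between 1311 and 1581 CPM, the 4 Rag1+ points between 7329 and 8017 CPM.

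The exception was Cdt1, the licensing factor that is destroyed once S phase starts, so that its protein is controlled largely after transcription. Cdt1 stood at 49.8, 82.2, 79.1 and 96.7 CPM in rows 11, 13, 15 and 17 and at 61.9, 53.4, 60.4 and 61.7 CPM in rows 12, 14, 16 and 18. Row 11 lay below all 4 even rows. Cdc6, which loads the helicase together with Cdt1, was at 25.5, 43.8, 47.1 and 47.8 CPM in the odd rows against 7.27, 6.70, 11.4 and 7.42 CPM in the even rows. The median odd row was 6.19 times the median even row for Cdc6 and 1.32 times for Cdt1. For the origin recognition subunits the ratio was 3.58 for Orc1 (8.11 to 17.6 CPM in the odd rows, 1.31 to 5.15 CPM in the even rows) and 2.71 for Orc6 (56.1 to 81.1 and 24.5 to 30.1 CPM).

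The 6 helicase subunits, which act in equal numbers in the ring, did not have equal ratios. Mcm5 was at 123, 177, 202 and 202 CPM in rows 11, 13, 15 and 17 and at 60.9, 56.5, 71.8 and 66.6 CPM in rows 12, 14, 16 and 18. The ratio of median rows was 3.50 for Mcm7, 3.10 for Mcm3, 2.97 for Mcm5, 2.47 for Mcm2, 2.28 for Mcm6 and 1.56 for Mcm4. Mcm4 came closest to overlap, with the odd rows from 117 to 179 CPM and the even rows from 92.8 to 111 CPM. The factors that switch the helicase on had larger ratios than any of its subunits: 5.93 for Cdc45, 5.53 for Mcm10, which binds the helicase as it fires, 5.36 for Gins1 and 5.07 for Gins2. These 4 stood at 3.69 to 10.9 CPM in the even rows and at 17.9 to 54.1 CPM in the odd rows.

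Polymerase genes had ratios of 3.97 (Pole, the catalytic subunit of the leading strand polymerase), 3.21 (Pola1, the catalytic subunit of polymerase alpha), 3.02 (Prim1, the primase that makes the RNA primer) and 2.94 (Pole2). On the lagging strand side, Pclaf, a small protein that binds Pcna, had the widest gap, at 281, 421, 452 and 469 CPM in the odd rows and 50.9, 47.9, 68.3 and 73.2 CPM in the even rows. Pcna itself, which also serves in DNA repair, had a ratio of 2.15 (159 to 247 against 100.3 to 116 CPM), while the ratio for Pclaf was 7.33. The clamp loader subunits Rfc3, Rfc4 and Rfc5 were at 3.55, 3.52 and 2.68, the flap nuclease Fen1 at 2.85, the ligase Lig1 at 4.16 and Dscc1, of the alternative clamp loader, at 3.58.

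Nucleotide supply genes had ratios of 3.74 to 6.62. Rrm2, the small subunit of ribonucleotide reductase that cycles with S phase, was at 158, 249, 274 and 284 CPM in the odd rows and 36.7, 29.7, 45.1 and 57.7 CPM in the even rows, a ratio of 6.40. Rrm1, the large subunit, had a ratio of 3.74. Tk1 (thymidine kinase) was at 6.62, Tyms (thymidylate synthase) at 6.14 and Dut, which removes dUTP, at 4.91. Among chromatin genes, Uhrf1, which brings maintenance DNA methylation to new strands, had the largest ratio of all 43 members, 8.10, with 112 to 206 CPM in the odd rows and 21.1 to 30.2 CPM in the even rows. The histone chaperone subunits Chaf1a and Chaf1b were at 4.63 and 2.97 and the helicase-like Hells at 4.42.

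The regulators of S phase entry were E2f1 and E2f2, with ratios of 4.85 and 4.63, the cyclins E Ccne1 and Ccne2, at 2.82 and 6.65, and Tcf19, at 2.73. Ccne2 was the rarest of these, at 1.37 to 2.64 CPM in the even rows. E2f2 spread widely among the even rows, at 5.29, 3.97, 16.2 and 14.8 CPM in rows 12, 14, 16 and 18. Of the checkpoint and repair members, Clspn, which carries the replication stress signal to Chk1, had a ratio of 6.11, Rmi2, of the complex that dissolves DNA crossovers, 2.74, and Ung, which removes uracil from DNA, 2.29.

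Within the odd rows the level depended on the cell group. The median cell held 6002.5 UMIs in the Cd79a+, 10487 in the Cst3+, 13561.5 in the Rag1+ and 5517.5 in the Ikzf2+ group and 4159 in the rest. The Rag1+ cells had 7688 CPM (7615 to 7761), the rest 6662 CPM (6601 to 6723), the Ikzf2+ cells 4906 CPM (4859 to 4953), the Cst3+ cells 3367 CPM (3333 to 3401) and the Cd79a+ cells 1396 CPM (1367 to 1425), beside 1396 CPM (1380 to 1413) in the even rows. Each neighbour in this order differed beyond counting error except the Cd79a+ cells and the even rows. Rag1+ cells had 7329, 7798, 7492 and 8017 CPM in rows 11, 13, 15 and 17, and Ikzf2+ cells had 4907, 4833, 5049 and 4885 CPM. These 2 groups kept their order in each odd row. The rest ranged from 4674 CPM in row 11 to 7774 CPM in row 15, and was below the Ikzf2+ cells in row 11 alone. Cst3+ cells ranged from 2811 to 4155 CPM. Cd79a+ cells had 988, 1452 and 1484 CPM in rows 11, 13 and 15 and 2849 CPM in row 17, where there were only 58 of them.

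Gene by gene, ratios to the even rows were taken on CPM + 10 and counted past 2-fold. In Rag1+ cells 42 members were past 2-fold higher, all but Cdt1 (log2 ratio 0.92), against 11.7% of all genes tested. The rest had 41 members past 2-fold, against 9.86% of genes, Ikzf2+ cells 37, against 8.65%, and Cst3+ cells 21, against 8.62%. The Cd79a+ cells had no member past 2-fold, against 5.22% of genes, and 2 with a pseudocount of 1 CPM. No member was past 2-fold lower in any group, against 12.3% of genes in Rag1+ cells, 7.22% in the rest, 6.09% in Ikzf2+, 8.25% in Cst3+ and 8.44% in Cd79a+ cells. A member under 10 CPM in the even rows, such as Cdc45 (7.42 CPM) or Ccne2 (2.00 CPM), could not be called lower, since 10 CPM was added. For such members the absence of a call is no result, and the same limit applies to every count of lower genes below. The median log2 ratio of the members was 1.79 in Rag1+ cells, 1.71 in the rest, 1.35 in Ikzf2+ cells, 0.94 in Cst3+ cells and 0.05 in Cd79a+ cells, where the medians over all genes tested were 0.05, 0.12, 0.17, -0.01 and -0.25. These sums weight a cell by its depth. With each cell thinned to 2000 UMIs and the groups left as they were, the Ikzf2+ cells had 3522 CPM and 31 members past 2-fold, and the Cst3+ cells 2606 CPM and 18. When the cells were also grouped anew by their thinned UMIs, which changes the cells in a group, it was 2282 CPM and 6 members in Ikzf2+ cells and 1967 CPM and 9 in Cst3+ cells. With cells of at most 4000 genes the counts were 24 and 5, and higher limits for the cell groups gave 9 in Cst3+ cells.

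**Figure D2:**
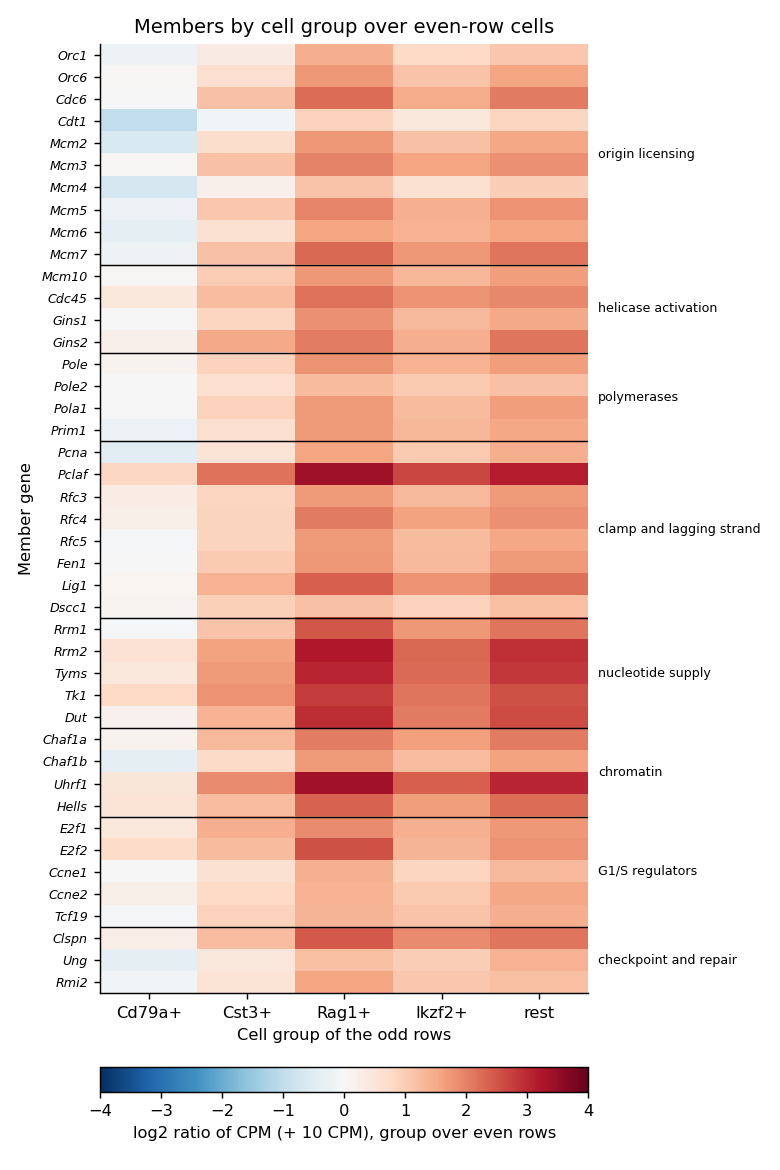
Log2 ratio of CPM (with 10 CPM added) of each member, in rows by role, for the 5 cell groups of the odd rows over even-row cells. Rag1+ cells have the deepest colours, Cd79a+ cells lie near 0, and Pclaf, Uhrf1, Rrm2 and Tyms are among the 5 highest members in each of the other 4 groups.

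In Rag1+ cells the log2 ratio was 3.40 for Pclaf (700 CPM against 57.0 CPM in the even rows), 3.37 for Uhrf1 (335 against 23.4 CPM), 3.20 for Rrm2 (452 against 40.1 CPM), 3.06 for Tyms, 2.96 for Dut and 2.81 for Tk1. The lowest after Cdt1 were Mcm4 at 1.13 and Dscc1 at 1.18. Ikzf2+ cells had 2.67 for Pclaf, 2.38 for Uhrf1 and 2.31 for Rrm2, and the 6 members not past 2-fold were Cdt1 (0.41), Mcm4 (0.62), Orc1 (0.78), Ccne1 (0.86), Dscc1 (0.93) and Ung (just under 1.00). The 10 CPM added understates a change in Orc1 (14.2 against 4.10 CPM), Ccne1 (21.5 against 7.32), Dscc1 (19.2 against 5.37) and Ung (49.7 against 19.9). With a pseudocount of 1 CPM, 41 members were past 2-fold in Ikzf2+ cells. E2f2 differed among the Rag1+, rest and Ikzf2+ groups more than E2f1: it was at 98.0 CPM in Rag1+ cells, 53.7 CPM in the rest and 36.6 CPM in Ikzf2+ cells, where E2f1 was at 66.5, 58.7 and 44.8 CPM. In Cd79a+ cells Cdt1 was at 24.5 CPM (20.8 to 28.6) and below the even rows (58.6 CPM, log2 ratio -0.99), Mcm4 had -0.66 and Mcm2 -0.62, while Pclaf had 0.84, Tk1 0.79 and E2f2 0.74. The equal sums of Cd79a+ and even-row cells thus held different proportions of the members: origin licensing made 444 CPM in Cd79a+ cells and 595 CPM in the even rows, and nucleotide supply 304 and 237 CPM.

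Sums do not show how many cells carry the mRNA, so each cell was thinned at random to 2000 UMIs and its member UMIs were counted. Shallower cells were left out, 216 in the odd and 552 in the even rows. At least 10 member UMIs were found in 71.5% of 389 Rag1+ cells (66.7 to 75.9%), 41.5% of the rest (38.2 to 45.0%), 27.0% of Ikzf2+ cells (24.3 to 29.8%), 22.1% of Cst3+ cells (19.5 to 24.8%), 3.91% of Cd79a+ cells (2.67 to 5.50%) and 2.38% of even-row cells (1.98 to 2.83%). Without thinning, in all kept cells, the shares were 83.0, 46.9, 47.1, 49.4, 14.1 and 6.39%, so that the rest no longer stood above the Ikzf2+ and Cst3+ cells, whose intervals overlapped each other after thinning. The limit is a point on a range: in the even rows 23 cells lay just below it and 14 at it.

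**Figure D3:**
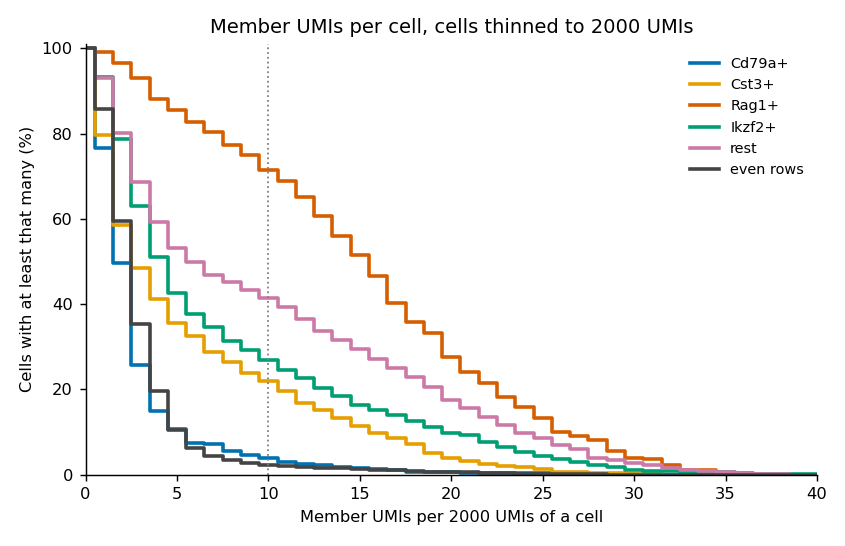
Percent of cells (vertical axis) with at least a given number of member UMIs after thinning to 2000 UMIs (horizontal axis), 1 line per cell group; the dotted line marks 10 UMIs. The Rag1+ line falls slowly, the Ikzf2+, Cst3+ and rest lines fall fast and then run on in a long tail, and the Cd79a+ and even-row lines are near 0 at the limit.

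The groups differed in shape as well as in height. The median Rag1+ cell held 15 member UMIs of 2000, and 0.771% of these cells held none. The median was 5 in the rest, 4 in Ikzf2+ cells and 2 in Cst3+ and even-row cells, with 6.88, 6.84, 20.3 and 14.3% of cells at 0, while the 90th percentiles were 23, 19, 15 and 5. Cells at the limit held 82.6% of the member UMIs of the rest, 68.9% of those of Ikzf2+ cells, 66.2% in Cst3+, 25.9% in Cd79a+ and 15.9% in even-row cells. In the even rows the greater part of the member UMIs came from cells with a few each, a level at which a cell's own low expression and free RNA cannot be told apart.

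Even rows differed from each other in the share of cells at the limit. It was 1.42% in row 12 (0.899 to 2.12%), 1.83% in row 14 (1.29 to 2.52%), 4.13% in row 16 (2.57 to 6.24%) and 3.98% in row 18 (2.91 to 5.31%). In order of share (rows 12, 14, 18 and 16), the intervals of rows 14 and 18 were the neighbours that did not overlap. Rows 12, 14, 16 and 18 had median depths of 3312.5, 3258, 3804 and 3663 UMIs, summed B cell markers of 38.5, 30.8, 56.1 and 50.7 CPM and summed dendritic and myeloid markers of 824, 524, 900 and 944 CPM. The part of these in the difference was not tested, nor was that of genotype, which could not be assigned to rows. In the odd rows the share was 17.5% in row 11, 31.0% in row 13, 34.9% in row 15 and 33.3% in row 17.

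To ask whether the members were high in the same cells, cells with at least 4 UMIs of the 6 helicase genes in 2000 (Mcm2-7-high) were set against the other cells of the same group, and the 37 members that did not set the limit were read. In the even rows 177 of 5206 cells were Mcm2-7-high (3.40%, 2.92 to 3.93%), with 205 cells just below the limit and 73 at it. In them 33 of 37 members were past 2-fold higher, against 2.79% of 8748 genes, with a median log2 ratio of 1.84 against 0.06 over all genes. Hells was at 141 CPM (105 to 186) in Mcm2-7-high and 14.7 CPM (12.4 to 17.3) in other even-row cells, a log2 ratio of 2.61. Lig1 had 181 against 22.2 CPM, Rrm2 192 against 24.2 CPM, Pole 81.9 against 6.16 CPM, Tcf19 98.9 against 9.35 CPM, Cdc6 67.8 against 3.88 CPM and Pclaf 251 against 37.3 CPM, with log2 ratios of 2.47 to 2.57. The 4 members not past 2-fold were Cdt1 (116 against 54.4 CPM, log2 ratio 0.97), Pole2, Orc1 and Ccne2. The last 3 were at 11.3 to 16.9 CPM even in the Mcm2-7-high cells, where the 10 CPM added understates a change. Cdt1 too was under the limit only with the 10 CPM added. Pcna was at 220 CPM in Mcm2-7-high cells and still at 95.3 CPM in the others.

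**Figure D4:**
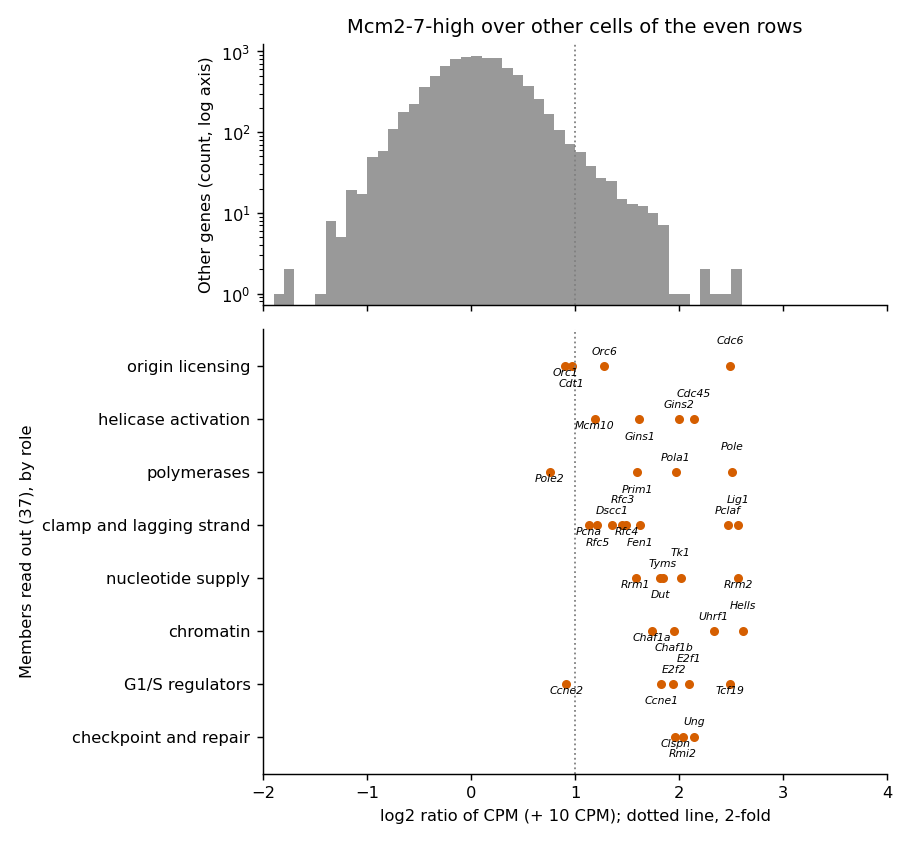
Log2 ratio of CPM (with 10 CPM added) between the 177 Mcm2-7-high and 5029 other cells of the even rows: other genes as a histogram (count on a log axis), the 37 members read out as labelled points by role. Of the members, 33 lie past the dotted 2-fold line and the lowest is Pole2.

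The stage 3 markers were still high in these even-row cells, at a lower sum than in the others. The 7 iNKT1 markers summed to 4012, 4169, 3611 and 3918 CPM in the Mcm2-7-high cells of rows 12, 14, 16 and 18 and to 4813, 4856, 4326 and 4819 CPM in the other cells of these rows. The 8 DP markers summed to 59.5, 195, 55.6 and 30.6 CPM in the Mcm2-7-high cells, highest in row 14, and to 56.2 to 65.4 CPM in the others. The part of these markers in the result was not tested. Klrb1c was at 262 to 331 CPM in the Mcm2-7-high cells of the 4 even rows and at 340 to 489 CPM in the other cells, and Nkg7, a cytotoxic granule gene, at 1508 to 1583 and 1529 to 1623 CPM. Cd79a was at 0 to 11.9 CPM, Cd8b1 at 0 to 59.3 CPM and Cd24a at 11.9 to 30.6 CPM in the Mcm2-7-high cells, with 17.8 to 27.0, 4.15 to 11.4 and 23.2 to 28.0 CPM in the others. The Mcm2-7-high cells were deeper before thinning, with a median of 4977 UMIs against 3491. The 37 members summed to 3036, 3136, 3296 and 4133 CPM in the Mcm2-7-high cells of rows 12, 14, 16 and 18, and to 687 to 699 CPM in the other cells of these rows, so that outside the Mcm2-7-high cells the 4 even rows lay within counting error of each other. The helicase genes that set the limit are not in these sums.

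Outside the list, the 10 genes with the highest ratio in Mcm2-7-high even-row cells were Stmn1 (log2 ratio 2.60), a microtubule destabiliser, Dtl (2.54), which directs the destruction of Cdt1, Mki67 (2.50), the proliferation marker Ki-67, Top2a (2.35), a topoisomerase, the histone chaperone Asf1b (2.23), the condensin subunit Ncapg2 (2.21), Zfp367 (2.09), the repair gene Brca1 (1.98), Ube2t (1.90) and Cit (1.89), a kinase of cytokinesis. Stmn1 had 556 CPM (481 to 640) in these cells against 83.6 CPM in the others.

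The same split gave 34 of 37 members past 2-fold in Ikzf2+ cells (219 against 834 cells; 1.95% of genes), 34 in the rest (2.96%), 34 in Cst3+ cells (4.07%), 32 in Cd79a+ cells (13.3%, with only 31 Mcm2-7-high cells) and 8 in Rag1+ cells (1.27%). Some calls in Cd79a+ cells rest on very few UMIs, such as Orc1 at 16.1 CPM (0.408 to 89.9) against 1.97 CPM. None of the 37 was past 2-fold lower in these 5 groups, against 1.91% of genes in Ikzf2+ cells, 6.44% in the rest, 4.33% in Cst3+, 17.1% in Cd79a+ and 3.04% in Rag1+ cells. Members as low in the other Cd79a+ cells as Cdc6 (4.59 CPM) or Chaf1b (2.62 CPM) could not be called lower, given the pseudocount. For members this low in the other cells of a group, the absence of a call is no result. In Rag1+ cells the 171 Mcm2-7-high and 218 other cells were closer in the members, with a median log2 ratio of 0.62 against 1.59 in Ikzf2+ cells. Pclaf was at 743 CPM in Mcm2-7-high Rag1+ cells and 530 CPM in the others, and Rrm2 at 520 and 355 CPM. In Ikzf2+ cells Pclaf was at 605 and 184 CPM and Rrm2 at 315 and 98.3 CPM. The 8 members past 2-fold in Rag1+ cells were Ung (123 against 22.9 CPM), Gins2, Cdt1, Chaf1b, Cdc6, Fen1, Tcf19 and Hells. The Mcm2-7-high cells were deeper in each group, as with 11502 against 4998 UMIs in Ikzf2+ cells and 15932 against 13284 UMIs in Rag1+ cells.

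Cells in S phase also differ in how far they are from mitosis, so cells were further divided by UMIs of 18 G2/M genes, at least 4 of 2000, a division added after these data were seen. In the even rows 144 cells had Mcm2-7 alone, 33 had both gene sets, 76 had G2/M alone and 4953 had neither. The same 4 classes held 132, 87, 200 and 634 of the Ikzf2+ cells and 44, 127, 148 and 70 of the Rag1+ cells. Cells with both sets were thus 0.634% of even-row, 8.26% of Ikzf2+ and 32.6% of Rag1+ cells. The 37 members summed to 2535 CPM in even-row cells with Mcm2-7 alone, 7242 CPM with both, 2520 CPM with G2/M alone and 666 CPM with neither. In Ikzf2+ cells the 4 sums were 3966, 7983, 3975 and 898 CPM. In Rag1+ cells they were 7057, 7134, 5108 and 2693 CPM.

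From Mcm2-7 alone to both sets, 11 members were past 2-fold higher and 1 lower in Ikzf2+ cells, against 5.34% and 8.12% of 8730 genes. In the even rows it was 21 higher and 2 lower, against 12% and 15% of genes, in 33 cells. The rest had 2 higher and 1 lower (6.93% and 4.03% of genes), Cst3+ cells 7 and 3 (9.93% and 10.6%) and Rag1+ cells 3 and 3 (14.9% and 4.8%). Cells with both sets were deeper before thinning than cells with Mcm2-7 alone, with medians of 13688 and 9503 UMIs in Ikzf2+ and 7297 and 4714.5 UMIs in even-row cells, and the part of depth in these counts was not tested. Pclaf was higher by a log2 ratio of 1.96 in Ikzf2+ and 2.46 in even-row cells. In Ikzf2+ cells it went from 277 CPM (217 to 348) with Mcm2-7 alone to 1103 CPM (953 to 1271) with both and 610 CPM (536 to 692) with G2/M alone. Rrm2 ran alike, at 136, 586 and 325 CPM in Ikzf2+ cells and 90.3, 636 and 329 CPM in even-row cells. Tyms was at 98.5, 448 and 168 CPM and Tk1 at 68.2, 247 and 160.0 CPM in the 3 classes of Ikzf2+ cells. For these 4 members, cells with G2/M alone had more than cells with Mcm2-7 alone, in Ikzf2+ and in even-row cells.

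Other members were lower in Ikzf2+ cells with G2/M alone than in those with Mcm2-7 alone. Ung was at 178 CPM (131 to 237) in Ikzf2+ cells with Mcm2-7 alone, 74.7 CPM (39.8 to 128) with both and 10.0 CPM (2.72 to 25.6) with G2/M alone. It was the member past 2-fold lower in Ikzf2+ cells (log2 ratio -1.15), and its log2 ratio was -2.33 in Cst3+ cells, -1.42 in Rag1+ cells and -2.43 in the rest. In even-row cells it was 0.50, from 27 and 9 UMIs, at 93.8, 136 and 13.2 CPM in the 3 classes. Cdc6 was at 72, 115 and 17.5 CPM and Ccne2, with few UMIs, at 37.9, 51.7 and 5.00 CPM in the 3 classes of Ikzf2+ cells. Hells was at 193 CPM with Mcm2-7 alone and 195 CPM with both, and at 95 CPM with G2/M alone. Ccne1 differed between the cell groups, with a log2 ratio of 2.89 in even-row cells (4 and 11 UMIs) and 0.01 in Ikzf2+ cells (9 and 6 UMIs).

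**Figure D5:**
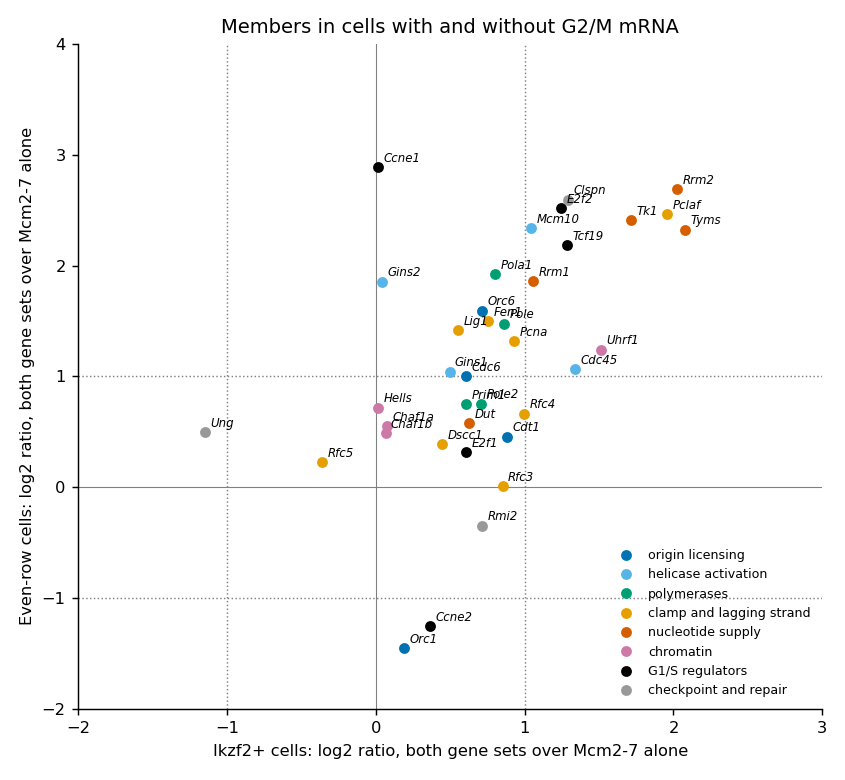
Log2 ratio of CPM (with 10 CPM added) of the 37 members between cells with both gene sets and cells with Mcm2-7 alone, in Ikzf2+ cells (horizontal axis) and even-row cells (vertical axis), coloured by role; dotted lines mark 2-fold. Rrm2, Tyms, Pclaf and Tk1 stand at the upper right, Ung alone past 2-fold on the left, and Orc1 and Ccne2, with few UMIs, at the bottom.

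Genes of the same pathway outside the list were read by 4 further lists. Of 49 other replication genes, 32 were past 2-fold higher in Rag1+ cells than in the even rows, 31 in the rest, 18 in Ikzf2+ cells, 9 in Cst3+ cells and 0 in Cd79a+ cells. None was called lower, a call that a gene under 10 CPM in the even rows could not get. All 18 G2/M genes were past 2-fold higher in Rag1+, Ikzf2+, Cst3+ cells and the rest, and 0 in Cd79a+ cells. The shares of all genes past 2-fold were those given for the members, 5.22% to 11.7% higher and 6.09% to 12.3% lower. Of 7 G1 cyclins and kinases, 3 were higher and 1 lower in each of the Rag1+, Ikzf2+ and rest groups, 2 higher and 1 lower in Cst3+ cells and 0 higher and 3 lower in Cd79a+ cells. Cdk6 had the highest log2 ratio in Rag1+ cells (3.23) and Ccnd2 the lowest (-2.98). Of 11 inhibitors of the cycle, 10 passed the level of 10 CPM, and 0 to 1 were higher and 1 to 3 lower in the 5 groups. The counts of higher inhibitors were thus near the share over all genes. Summed inhibitor mRNA was 1207 CPM in the even rows, 865 CPM in Cd79a+, 670 CPM in Cst3+, 626 CPM in Rag1+ and 781 CPM in Ikzf2+ cells and 713 CPM in the rest. Except in Cd79a+ cells, most of the gap to the even rows was Btg1, an antiproliferative gene of resting lymphocytes, at 690 CPM in the even rows, 531 CPM in Cd79a+, 208 CPM in Cst3+, 51.1 CPM in Rag1+ and 231 CPM in Ikzf2+ cells and 142 CPM in the rest. Without Btg1 the other 10 inhibitors summed to 517 CPM in the even rows and 575 CPM in Rag1+ cells, and the median log2 ratio of the inhibitors was 0.12 in Rag1+ cells.

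Within the even rows, Mcm2-7-high cells had 27 of 49 other replication genes past 2-fold higher, where 2.79% of all genes were higher and 0.617% lower. The highest were Tipin (log2 ratio 1.81), of the fork protection complex, and Brip1 (1.80), a helicase of DNA repair, and the lowest Dbf4 (-0.03), Orc4 (0.04) and Mcm9 (0.04). Of the 18 G2/M genes 11 were higher, led by Mki67 (2.50), Top2a (2.35) and Kif11 (1.65), with Cenpa (0.21), Cenpe (0.24) and Plk1 (0.37) lowest. The odd-row groups differed in this. The same split gave 0 of the 18 higher in Ikzf2+ (1.95% of all genes), Cst3+ (4.07%) and Rag1+ cells (1.27%). It gave 4 in the rest (2.96%) and 16 in Cd79a+ cells (13.3%). Back in the even rows, Cdk2 (1.33) alone of the G1 cyclins and kinases was past 2-fold, followed by Cdk4 (0.85) and Cdk6 (0.51). Ccnd2 (-0.26), Ccnd1 (-0.10) and Myc (0.01), which act before S phase, were the lowest. Of the inhibitors only Rbl1 (1.65), a retinoblastoma relative, was past 2-fold higher, ahead of Cdkn1a (0.95) and Cdkn2c (0.77), and Btg1 (-0.93), Cdkn2d (-0.62) and Tob1 (-0.45) were lowest. Btg1 was at 379 CPM in Mcm2-7-high and 731 CPM in other even-row cells.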

How the data were processed

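The authors deposited 1 matrix of raw UMI counts per gene and cell barcode, made with Cell Ranger 6.0.0 and the prebuilt mm10 reference, which also held counts of 20 hashtag rows. It was 1 library in which all populations were pooled, so depth is given per cell (median 3828 UMIs over kept cells) and, since the labels pair no hashtag row with a stage or genotype, no test across samples was made. Cells were filtered and grouped as stated in the report, with no doublet caller beyond the 80% hashtag share. Levels are summed counts divided by all gene UMIs (CPM). Genes needed 10 CPM over all kept cells (or over the cells that could be thinned), and ratios are log2 of CPM + 10. Intervals are exact Poisson or Clopper-Pearson. Python 3.11.15, numpy 2.4.6, scipy 1.17.1 and pandas 2.3.3 were used, and the ratio step was tested on simulated data. The members and the gene lists were chosen with earlier results of these data known. Named were all members, the 3 highest and 3 lowest genes of each pathway list and the 10 top non-members in Mcm2-7-high even-row cells. A gene under this rule is not reported here. Alternatives changed the cell filters, hashtag share, group limits, thinning (before or after grouping), pseudocount and G2/M limit, and left out each hashtag row. Promoters came from RefSeq (GRCm38.p6).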

Additional observations from a re-analysis of the deposited data

How the results depend on the processing

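Of 235 recomputed values, 161 moved by less than their counting interval (or, for counts of members, by less than 1.5 times) and 74 moved more. The pooled odd rows stayed above the pooled even rows in each setting that recomputed them. With a filter of 500 genes and 10% mitochondrial UMIs, the levels were 1426 CPM in the even rows, 7593 in Rag1+, 4855 in Ikzf2+ and 6396 CPM in the rest. With at most 4000 genes per cell they were 3122 CPM in the odd rows, 1007 in Cd79a+, 2020 in Cst3+, 7523 in Rag1+, 3489 in Ikzf2+ and 5662 CPM in the rest, members past 2-fold were 5 in Cst3+ and 24 in Ikzf2+ cells, and shares of cells at the limit were 12% in Cst3+, 61.3% in Rag1+, 17.9% in Ikzf2+ and 33.4% in the rest. A hashtag share of 90% of at least 20 UMIs gave 4534 CPM in the odd and 1377 in the even rows, 1473 in Cd79a+, 7546 in Rag1+, 4840 in Ikzf2+ and 6600.0 CPM in the rest. Limits of 3, 8, 2 and 3 UMIs for Cd79a, Cst3, Rag1 and Ikzf2 gave 1336 CPM in Cd79a+, 2518 in Cst3+ (9 members past 2-fold), 7346 in Rag1+, 4631 in Ikzf2+ and 6884 CPM in the rest, with 14.5% of Cst3+ and 47.1% of rest cells at the limit. A limit of 1 Ikzf2 UMI gave 5433 CPM and 31.7% in Ikzf2+ cells and 6442 CPM and 37.7% in the rest. Thinning to 2000 UMIs before grouping gave 1043 CPM in Cd79a+, 1967 in Cst3+ (9 members), 6227 in Rag1+, 2282 in Ikzf2+ (6 members) and 5177 CPM in the rest. Thinning with the groups as set before it, added after these data were seen, gave 1132 CPM in Cd79a+, 2606 in Cst3+ (18 members), 7366 in Rag1+, 3522 in Ikzf2+ (31 members) and 4775 CPM in the rest. A pseudocount of 1 CPM gave 2 members past 2-fold in Cd79a+ and 33 in Cst3+ cells. Thinned to 1000 UMIs with a limit of 5, 64.8% of Rag1+, 35.4% of rest and 3.11% of even-row cells reached the limit; without thinning it was 14.1% of Cd79a+, 49.4% of Cst3+, 83.0% of Rag1+, 47.1% of Ikzf2+, 46.9% of rest and 6.39% of even-row cells.

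Leaving out each hashtag row in turn gave 1290 to 1601 CPM in Cd79a+, 3195 to 3708 in Cst3+, 7611 to 7779 in Rag1+, 4860 to 4958 in Ikzf2+ and 6250 to 7243 CPM in the rest. Members past 2-fold were then 0 to 1, 19 to 25, 40 to 42, 35 to 39 and 39 to 42, and shares at the limit 3.52 to 4.95%, 19.6 to 25.5%, 69.7 to 72.5%, 26.1 to 27.5% and 35.8 to 50.1%, with 1.95 to 2.82% in the even rows. Members past 2-fold in Mcm2-7-high even-row cells numbered 27 to 37 over all settings, and with both gene sets over Mcm2-7 alone 10 to 16 in Ikzf2+ and 18 to 24 in even-row cells. No paired analysis was possible because the hashtag rows carry no replicate number that the labels give. With 1 library, neither spread between mice nor between replicas enters any value.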
